A study of Gossypium hirsutum with 18 samples.

Results

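SAUR genes, named for small auxin up RNA, were followed in upland cotton (Gossypium hirsutum), in the roots and the leaves of seedlings. Of the 70478 genes in the deposited table, 237 carry a Description that contains SAUR, always as the same family name. Of these, 98 reached an FPKM of at least 1 (fragments scaled by gene length and library size, computed by the authors) in at least 3 of the 18 libraries. These 98 genes are the members described here. The 3 members nearest above the rule had third-highest FPKM values of 1.01 for Gh_D06G0011, 1.02 for Gh_A03G1783 and 1.02 for Gh_D13G2428. The 3 genes nearest below it had 0.944 for Gh_D06G2088, 0.927 for Gh_A03G1788 and 0.901 for Gh_D05G1791. Among the 139 genes left outside, 46 had no count in any library and 93 had some.

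SAUR proteins are short, plant-specific proteins, and many of their transcripts are made within minutes of an auxin pulse and broken down quickly. In Arabidopsis, several SAUR proteins bind and inhibit a clade of type 2C protein phosphatases. Those phosphatases otherwise switch off plasma membrane proton pumps, so SAUR proteins keep the pumps active, the wall acidic and the cell able to expand. Other Arabidopsis SAUR genes answer to abscisic acid, cold, drought or light rather than to auxin, and some act in leaf senescence.

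Poly(A) RNA from the 18 libraries was read as pairs on an Illumina HiSeq 4000. SAS roots, AS roots, CK roots, SAS leaves, AS leaves and CK leaves had 3 libraries each. All seedlings grew in soil, and the treated ones were moved to solutions of 125 mM NaHCO3 or of NaOH at equal pH and kept there for 12 h. Which of the codes SAS and AS stands for which solution is not given, so the codes are kept. CK is listed as having no treatment, and its solution and sampling time are not given. Against CK, a solution therefore cannot be told apart from the move out of soil or the time of sampling. Cultivar and age are not given either. No label ties a library to its own plant, so p-values measure the spread between libraries, which may be technical. Total counts ran from 46345805 to 66843791 per library.

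Leaf photosynthetic markers (64 genes for the Rubisco small subunit and light-harvesting proteins) summed to 2682 to 5275 CPM (counts scaled by library size) in SAS leaves, 8702 to 9711 CPM in AS leaves and 9132 to 11722 CPM in CK leaves. In roots the same genes summed to 105 to 144 CPM in SAS, 187 to 313 CPM in AS and 315 to 343 CPM in CK. Root hair markers (29 genes) summed to 65.6 to 69.3 CPM in SAS roots, 91.1 to 133 CPM in AS roots and 263 to 277 CPM in CK roots, and to at most 21.8 CPM in any leaf library. In SAS, AS and CK roots, 12, 11 and 13 of those 29 genes had no count. Both tissues therefore carried the markers of their label, and the marker levels moved with treatment. For roots this rests on root hair genes alone, and only 7 of the 29 passed the FPKM rule over the 18 libraries. Casparian strip and COBRA-like genes, planned as root markers, were not used. Xylem markers (25 genes) summed to 161 to 198 CPM in SAS roots, 86.2 to 109 CPM in AS roots and 90.7 to 126 CPM in CK roots. Dividing-cell markers (18 genes) summed to 5.95 to 8.99 CPM in SAS roots, 4.84 to 6.83 CPM in AS roots and 3.47 to 10.3 CPM in CK roots. In leaves these markers spread widely in SAS, from 2.77 to 34.2 CPM, against 4.27 to 14.5 CPM in AS and 6.87 to 9.30 CPM in CK. Their part in the results below was not tested. In bulk RNA, fewer cells of a type and less RNA per cell cannot be told apart.

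The members were compact genes, between 174 and 1000 bases long with a median of 375 bases. On assembled chromosomes, 34 lay in the A subgenome and 47 in the D subgenome, and 17 lay on scaffolds. The deposited pathway annotation put 87 of the 98 in the SAUR entry K14488, while 9 carried K07441, an entry for a glycosyltransferase subunit, and 2 carried none. Tandem arrays of at least 3 SAUR genes with gaps of at most 50 kb numbered 10 and held 98 of the 237 genes, but only 16 of these array genes were members and 82 were not. The largest arrays, on chromosome A03 (A03:98843297-99043106) and chromosome D02 (D02:66031173-66183650), held 23 genes each, of which 4 and 3 were members. No source used here gives the genome build of these coordinates. Upland cotton is an allotetraploid with A and D copies of most genes, and SAUR arrays hold close copies. How reads shared between copies were assigned is not known, so values of near-identical members are uncertain. No sequence of the members was used.

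Control plants showed which SAUR genes each tissue used. In CK roots 2 members were enough to reach 50% of all member CPM, and in CK leaves 8 were needed. The largest was Gh_A12G2619 (scaffold3381_A12:15213-15677), with 359.5, 507 and 429.7 FPKM in CK roots against 7.18, 6.82 and 4.65 FPKM in CK leaves. Gh_D12G1424 followed, with 148, 179 and 226 FPKM in CK roots against 3.39, 4.05 and 3.06 FPKM in CK leaves. All 3 CK root libraries stood far above all 3 CK leaf libraries for both genes. In a fit of all 18 libraries the log2 difference was 6.36 ± 0.25, adjusted p = 1.2e-10, for Gh_A12G2619 and log2 5.96 ± 0.32, adjusted p = 8.9e-10 for Gh_D12G1424. Each ± after a log2 value is its standard error, and adjusted p is from edgeR's quasi-likelihood test with Benjamini-Hochberg adjustment over all genes tested.

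Of the 98 members, 23 were higher and 41 lower in CK roots than in CK leaves, where 66.2% of 48954 genes were called, 31.4% higher and 34.7% lower. Gh_D04G1627 had 4.25, 3.59 and 3.51 CPM in CK roots (scaled over all 18 libraries in this comparison of CK tissues and in the marker sums) and no count in CK leaves. It was therefore at least 92.2-fold higher in roots, taking 3 counts in each leaf library as the floor (adjusted p = 1.7e-04). This gene passed the FPKM rule through CK root libraries alone, the group where it is high. Gh_D07G0491 had 15.4, 18.8 and 21.9 CPM in CK roots and 0, 0.0506 and 0 CPM in CK leaves (log2 9.86, and 13.10 without CK leaf library 2, a value that depends on the prior count since CK leaves are then at 0). For Gh_A10G0478 the values were 7.79, 6.05 and 9.93 CPM in CK roots and 0.0309, 0 and 0.0387 CPM in CK leaves (log2 8.32, 7.73 without CK leaf library 2 and 8.93 without CK leaf library 3). These 3 genes were close to silent in leaves.

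At the leaf end, 19 members had no count in CK roots, and 4 had none in CK leaves. The FPKM rule was met within leaves only by 40 members and within roots only by 15. The share of all genes with no count was not computed, so these counts are not read as a trait of the family. Gh_A13G2198 had no count in CK roots and 11.8, 13.6 and 12.4 CPM in CK leaves, at least 221-fold lower in roots (adjusted p = 4.6e-07). Gh_D07G0138 had 9.55, 8.29 and 9.40 CPM and Gh_D02G2204 7.25, 8.24 and 7.72 CPM in CK leaves, and both were at 0 in CK roots. Their root levels were at least 159.9-fold and 136-fold lower (adjusted p = 9.6e-07 and 2.7e-07). Gh_A13G2198, Gh_D07G0138 and Gh_D02G2204 reached an FPKM of 1 in leaf libraries alone, the tissue where they are high. Some members were high in both tissues. Gh_A12G0919, Gh_A12G0918 and Gh_D12G1010 were the 3 most abundant members of leaves per length, with mean FPKM of 52.5, 38.2 and 45.6 over the 9 leaf libraries. In the 9 root libraries they averaged 34.7, 26.3 and 45.2 FPKM. The deposited annotation gives these 3 the terms positive regulation of leaf senescence and regulation of seed germination, and the difference between CK roots and CK leaves was not called for any of them.

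**Figure D1:**
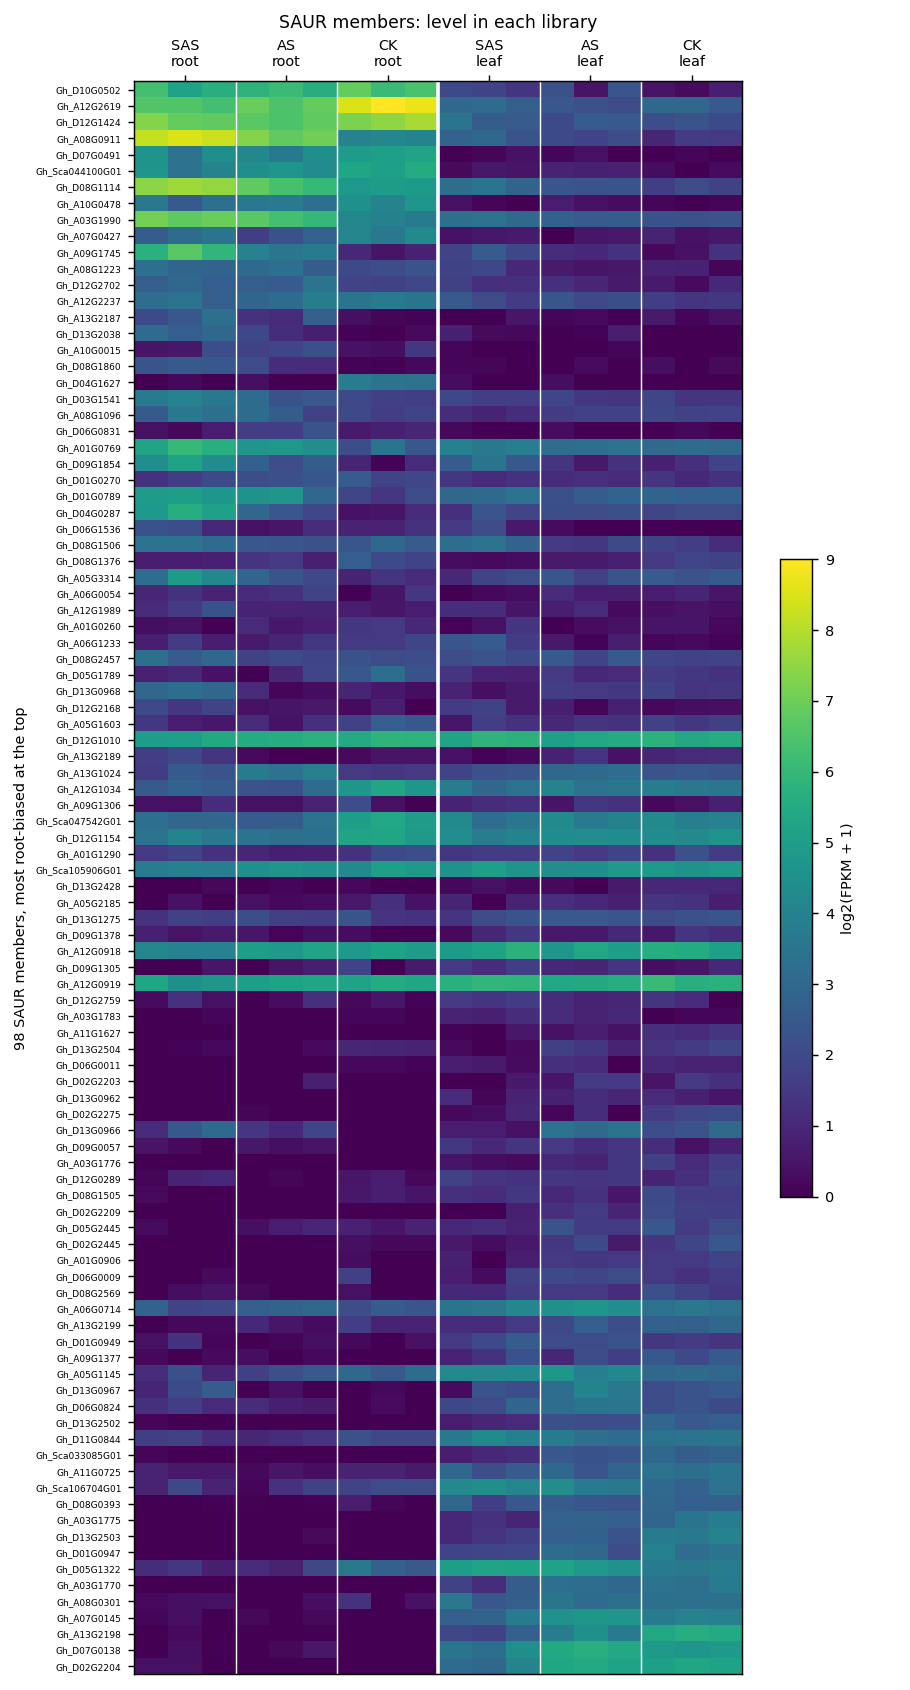
Level of each of the 98 SAUR members (rows) in each of the 18 libraries (columns, 3 per group), as log2(FPKM + 1). Rows run from the most root-biased to the most leaf-biased member. A few rows at the top are bright in roots, and that of Gh_A12G2619 comes close to 9 in CK roots. The bottom rows are dark in roots, and the rows of Gh_A12G0919, Gh_A12G0918 and Gh_D12G1010 stay bright throughout.

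In roots, both treatments were set against CK to see how the family differed. The leading gene changed. Gh_A12G2619, first in CK roots, fell in both treatments, and Gh_A08G0911, Gh_D08G1114 and Gh_A03G1990, minor in CK roots, rose in both. Of the 98 members, 58 passed the FPKM rule within roots and were tested, and 5 of these passed through the libraries of 1 group only (3 through SAS, 1 through AS and 1 through CK). In SAS roots 26 of the 58 were higher and 9 lower than in CK, with 57.0% of 39584 genes called, 28.6% higher and 28.3% lower. The share of members called, 60.3%, is near that background, and 44.8% of members were higher and 15.5% lower. In AS roots 22 were higher and 7 lower, with 38.0% of all genes called, 21.0% higher and 17.0% lower. Both comparisons use the same CK libraries.

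Gh_A08G0911 (A08:56870579-56871208) had 146, 183 and 162 CPM in SAS roots, 77.3, 57.7 and 59.7 CPM in AS roots and 4.83, 6.09 and 5.79 CPM in CK roots, with CPM of members scaled within each tissue from here on, so that root and leaf CPM are not on one scale. No library of 1 group reached into another. Its log2 change was 4.88 ± 0.21, adjusted p = 5.7e-07, in SAS and log2 3.54 ± 0.20, adjusted p = 9.6e-06 in AS. Per length it had 296, 360.4 and 309.5 FPKM in SAS roots, against 14.7, 17.1 and 15.8 FPKM in CK roots. Gh_D08G1114 (D08:34480661-34481290) had 85.3, 104 and 97.2 CPM in SAS roots, 53.4, 42.3 and 29 CPM in AS roots and 8.75, 10.5 and 10.6 CPM in CK roots. Again the 3 groups were apart, in the order SAS, AS, CK from high to low. The log2 change was 3.26 ± 0.23, adjusted p = 5.0e-06, in SAS and log2 2.06 ± 0.22, adjusted p = 1.7e-04 in AS. Gh_A03G1990 (scaffold502_A03:12428-12910) had 81.1, 65.9 and 76.4 CPM in SAS roots, 60.2, 49.6 and 33.8 CPM in AS roots and 6.39, 6.13 and 5.22 CPM in CK roots. Its treated libraries were all above its CK libraries, with log2 changes of 3.65 ± 0.23, adjusted p = 2.6e-06, in SAS and log2 3.02 ± 0.23, adjusted p = 2.7e-05 in AS.

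Gh_A12G2619 had 53.4, 53.6 and 47.6 CPM in SAS roots, 67.8, 52.4 and 61.5 CPM in AS roots and 135, 207 and 180.2 CPM in CK roots. Every treated library lay below every CK library, and the treated groups overlapped each other. The log2 change was -1.76 ± 0.20, adjusted p = 6.4e-05, in SAS and log2 -1.52 ± 0.19, adjusted p = 4.0e-04 in AS. Gh_D12G1424, the second member of CK roots, had 89.9, 68.2 and 66.3 CPM in SAS roots, 56.9, 50.8 and 57.6 CPM in AS roots and 55.8, 73.2 and 94.9 CPM in CK roots. Its SAS and CK libraries overlapped widely, and neither change was called (log2 0.00 in SAS, adjusted p = 0.990, and -0.44 in AS, adjusted p = 0.131).

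**Figure D2:**
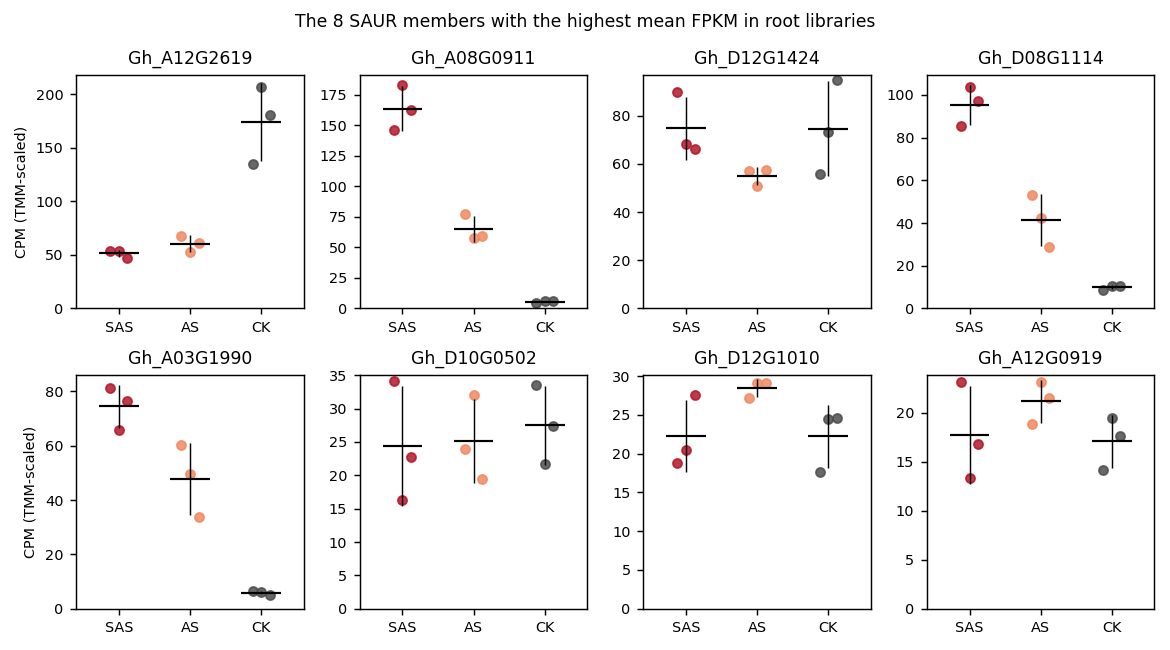
CPM of the 8 members with the highest mean FPKM over root libraries, in SAS, AS and CK roots. Points are libraries, horizontal bars are means and vertical bars are SDs (n = 3). Gh_A08G0911, Gh_D08G1114 and Gh_A03G1990 are lowest in CK, Gh_A12G2619 is highest in CK, and the SAS and CK points of Gh_D12G1424 overlap.

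Some members went from near silence to moderate levels. Gh_A09G1745 had 31.7, 64.3 and 38 CPM in SAS roots, 8.89, 6.74 and 6.70 CPM in AS roots and 0.402, 0.189 and 0.340 CPM in CK roots. The groups did not overlap, and the log2 change was 7.17 ± 0.39, adjusted p = 1.3e-06, in SAS and log2 4.58 ± 0.36, adjusted p = 3.2e-05 in AS. Gh_D04G0287 had 10.7, 19.9 and 14.7 CPM in SAS roots, 2.69, 1.87 and 1.04 CPM in AS roots and 0.113, 0.131 and 0.324 CPM in CK roots. Its log2 change was 6.30 ± 0.52, adjusted p = 1.1e-05, in SAS, or 6.92 without CK root library 3, the highest of its CK libraries. In AS it was 3.29, or 3.91 without that library.

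Gh_D13G2038, one of the 9 members with the entry K07441, had 3.62, 2.58 and 3.44 CPM in SAS roots, 1.31, 0.613 and 0.290 CPM in AS roots and 0.0322, 0 and 0.0618 CPM in CK roots. The log2 change was 6.60 ± 0.81, adjusted p = 1.1e-04, in SAS and log2 4.49 ± 0.80, adjusted p = 0.00212 in AS. Without CK root library 3 these were 7.51 and 5.39, and without AS root library 1 the AS change was 3.78. Gh_D08G1860 had 2.44, 2.95 and 2.95 CPM in SAS roots, 1.96, 0.771 and 0.637 CPM in AS roots and 0.0322, 0.0146 and 0.0618 CPM in CK roots. Its AS change was log2 4.88 ± 0.63, adjusted p = 4.0e-04, 4.21 without AS root library 1 and 5.48 without CK root library 3. Gh_D13G0966 (D13:22166093-22166383), of an array of 9 SAUR genes on D13, had 0.421, 1.67 and 2.79 CPM in SAS roots, 0.594, 0.403 and 0.888 CPM in AS roots and no count in CK roots. With CK at the floor of 3 counts per library it was at least 35.2-fold higher in SAS (adjusted p = 4.4e-04) and 13.6-fold higher in AS (adjusted p = 0.00241). SAS root library 1 held the least and library 3 the most, and the fitted log2 change of 9.51 was 8.91 without library 3.

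Fewer members fell than rose in roots. Gh_D04G1627, found in CK roots and hardly in leaves, entered the root fit through CK libraries alone, the group where it is high. It had 0, 0.0610 and 0 CPM in SAS roots, 0.122, 0 and 0 CPM in AS roots and 3.47, 2.90 and 2.84 CPM in CK roots. One library of each treated group held all of its counts there. The log2 change was -7.06 ± 1.09, adjusted p = 4.4e-04, in SAS (-10.45 without SAS root library 2) and log2 -6.13 ± 0.99, adjusted p = 0.00131 in AS (-10.43 without AS root library 1). These fits without the lone library depend on the prior count, since the treated group is then at 0. Gh_A12G1034 had 2.04, 2.75 and 2.38 CPM in SAS roots, 1.71, 1.73 and 3.19 CPM in AS roots and 7.53, 11.9 and 8.36 CPM in CK roots (log2 -1.95 ± 0.30 in SAS and -2.07 ± 0.30 in AS). Gh_Sca047542G01, a scaffold gene of the same length, had 3.84, 3.07 and 3.16 CPM in SAS roots, 2.24, 2.42 and 3.71 CPM in AS roots and 9.10, 12.9 and 9.87 CPM in CK roots, so the 2 genes moved alike. Whether they share reads was not tested.

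Gh_D05G1322 had 0.674, 0.895 and 0.380 CPM in SAS roots, 0.629, 0.455 and 1.37 CPM in AS roots and 3.81, 2.13 and 1.78 CPM in CK roots. Its fall was called in SAS (log2 -1.98 ± 0.52, adjusted p = 0.00841) and in AS (log2 -1.65 ± 0.51, adjusted p = 0.0279), but the AS call was lost without AS root library 1 (adjusted p = 0.0897), AS root library 2 (adjusted p = 0.0958) or CK root library 1 (adjusted p = 0.108). Gh_A01G0260 had 0.148, 0.203 and 0 CPM in SAS roots and 0.627, 0.685 and 0.386 CPM in CK roots (log2 -2.25 ± 0.78, adjusted p = 0.0315). That call was lost without CK root library 1, CK root library 2 or SAS root library 1 (adjusted p = 0.0670, 0.0769 and 0.0564), and its log2 change was -2.90 without SAS root library 2.

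Over the 58 tested members the median log2 change was 0.35 in SAS and 0.36 in AS roots, where all genes had medians of -0.06 and -0.01. These medians depend on the scaling. Scaled by library totals alone, they were -0.18 for the members and -0.59 for all genes in SAS, and -0.11 for the members and -0.48 for all genes in AS. The calls were then 25 higher and 18 lower in SAS and 19 higher and 14 lower in AS. No member called in either comparison took the opposite sign with library totals.

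SAS and AS roots were also set against each other directly. Here 19 of the 58 members were higher and 4 lower in SAS, with 39.7% of all genes called, 20.7% higher and 19.0% lower. Without AS root library 2 the count of higher members was 11. The 3 abundant members that rose in both treatments were higher in SAS, by log2 1.33 ± 0.18, adjusted p = 6.0e-04 for Gh_A08G0911, log2 1.20 ± 0.22, adjusted p = 0.00235 for Gh_D08G1114 and log2 0.64 ± 0.21, adjusted p = 0.0347 for Gh_A03G1990. The last call was lost without AS library 2, AS library 3, SAS library 1 or SAS library 3, with adjusted p between 0.0788 and 0.0943. Gh_A09G1745 (log2 2.58 ± 0.30, adjusted p = 3.4e-04) and Gh_D04G0287 (log2 3.01 ± 0.43, adjusted p = 7.5e-04) were among the largest differences.

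The largest log2 differences between the treatments were in the D13 and A13 arrays. Gh_A13G2189 (scaffold3540_A13:277767-278051) had 0.738, 1.02 and 0.591 CPM in SAS roots, 0.0699, 0 and 0 CPM in AS roots and 0.0483, 0.102 and 0.108 CPM in CK roots. Its log2 difference between SAS and AS was 4.91 ± 0.89, adjusted p = 0.00230, or 8.46 without AS root library 1, the only AS root library with a count, and that value depends on the prior count since AS is then at 0. This gene reached an FPKM of 1 in roots in SAS libraries alone, so it entered the root fit through the group where it is high. Gh_D13G0968 (D13:22187210-22187491) had 2.36, 3.01 and 2.51 CPM in SAS roots, 0.402, 0.0526 and 0.0772 CPM in AS roots and 0.209, 0.131 and 0.0772 CPM in CK roots. It differed by log2 3.86 ± 0.69, adjusted p = 0.00212 between SAS and AS, or 5.30 without AS root library 1, and its AS and CK libraries overlapped. Both genes carry the term water channel activity, which the deposited annotation gives to 7 SAUR genes, 2 of them members.

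A few members stood higher in AS. Gh_A13G1024 had 1.05, 2.60 and 2.24 CPM in SAS roots, 6.32, 5.34 and 6.95 CPM in AS roots and 0.643, 0.641 and 0.695 CPM in CK roots. AS was highest in every library, and SAS against AS gave log2 -1.66 ± 0.32, adjusted p = 0.00316. Gh_D06G0831 had 0.169, 0.0814 and 0.316 CPM in SAS roots, 0.978, 1.02 and 1.72 CPM in AS roots and 0.193, 0.248 and 0.340 CPM in CK roots, so SAS and CK overlapped and AS stood apart (log2 -2.70 ± 0.54, adjusted p = 0.00372, log2 -3.29 without SAS root library 3). This gene entered the root fit through AS libraries alone. Gh_A12G0918, of the leaf senescence term, had 10.0, 9.27 and 9.45 CPM in SAS roots, 18.7, 17.4 and 20.7 CPM in AS roots and 11.2, 15.7 and 13.6 CPM in CK roots (log2 -0.98 ± 0.16, adjusted p = 0.00139). Against CK it was called lower in SAS (log2 -0.50 ± 0.16, adjusted p = 0.0220) and higher in AS (log2 0.49 ± 0.16, adjusted p = 0.0351). Scaled by library totals alone the AS change was 0.03 (adjusted p = 0.888) and the SAS change -1.02 (adjusted p = 5.1e-04), so the AS rise depends on the scaling. The SAS call was lost without any of 4 single libraries of the groups compared, with adjusted p up to 0.0951, and the AS call without any of 5, with adjusted p up to 0.123. Gh_Sca105906G01 had 5.06, 5.69 and 5.51 CPM in SAS roots and 8.36, 10.1 and 8.15 CPM in AS roots (log2 -0.71 ± 0.24, adjusted p = 0.0376), and its call was lost without any single library of either group other than AS root library 3, with adjusted p up to 0.125.

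Summed over the 98 members, SAUR reads came to 748, 812 and 758 CPM in SAS roots, 541, 490.0 and 459 CPM in AS roots and 399, 507 and 504 CPM in CK roots. SAS roots stood above both other groups, while AS and CK roots overlapped. The group means were 773 ± 34.4 in SAS, 497 ± 41.2 in AS and 470.2 ± 61.9 in CK (SD, n = 3). With library totals as the only scaling the means were 674 in SAS, 452 in AS and 589 in CK, so AS was then below CK. Gh_A08G0911 held 21.2% of the sum in SAS roots, 13.1% in AS roots and 1.18% in CK roots, and Gh_A12G2619 held 6.67% in SAS, 12.2% in AS and 37.0% in CK. In leaves the sums were 219, 249 and 249 CPM in SAS, 254, 253 and 251 CPM in AS and 275, 251 and 258 CPM in CK, which overlap. No test was run on the sums.

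**Figure D3:**
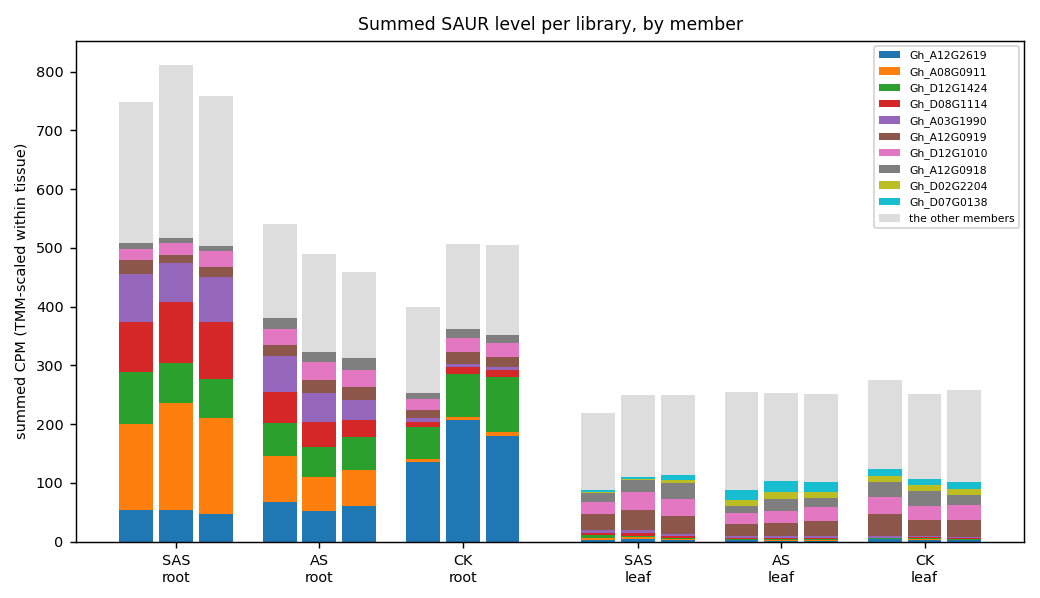
Summed CPM of the 98 members in each library, with the members that lead in root or leaf drawn in colour. Bars are single libraries, scaled within each tissue. SAS root bars reach 748 to 812 CPM, and their make-up differs from that of CK root bars, where Gh_A12G2619 is the largest block.

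In SAS leaves more members fell than rose, and in AS leaves few were called. Of 83 members tested in leaves, 16 were higher and 25 lower in SAS than in CK, with 53.2% of 44761 genes called, 27.2% higher and 26.0% lower. The share of members called, 49.4%, is near that background. In AS leaves 8 were higher and 5 lower, with 20.7% of all genes called, 11.5% higher and 9.21% lower. The AS counts were 5 higher without AS leaf library 1, AS leaf library 3, CK leaf library 1 or CK leaf library 2, and 3 lower without AS leaf library 1, CK leaf library 1 or CK leaf library 2. Scaled by library totals alone they were 9 higher and 3 lower. The median log2 change of the members was -0.37 in SAS and -0.11 in AS leaves, beside -0.00 and -0.02 for all genes. In leaves, 4 members passed the rule through 1 group only, 1 through SAS and 3 through CK. The sums of leaf photosynthetic markers given above were lower in SAS leaves than in CK leaves, and of 54 such genes tested 0 rose and 34 fell in SAS.

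Most members that fell in SAS leaves were below the FPKM rule in roots. Of the 40 members tested only in leaves, 20 were lower and 2 higher in SAS than in CK, where 47.3% of the 9064 genes tested only in leaves were lower and 10.3% higher. Of the 43 tested in both tissues 5 were lower and 14 higher, where 20.6% of 35697 such genes were lower and 31.5% higher. The fall of leaf-only members is near that of leaf-only genes at large. Gh_A13G2198 had 0.991, 0.831 and 1.92 CPM in SAS leaves, 4.28, 7.12 and 4.11 CPM in AS leaves and 14.4, 16.7 and 15.2 CPM in CK leaves. The 3 groups were apart, with log2 changes of -3.61 ± 0.33, adjusted p = 3.8e-05, in SAS and log2 -1.58 ± 0.29, adjusted p = 0.00559 in AS. Gh_D13G2503 had 0.348, 0.554 and 0.730 CPM in SAS leaves, 1.80, 1.94 and 1.31 CPM in AS leaves and 4.34, 3.99 and 5.25 CPM in CK leaves, the same order, and its AS change was log2 -1.42 ± 0.28, adjusted p = 0.00678. Gh_D13G2504, on the same scaffold, had 0.0869, 0 and 0.0995 CPM in SAS leaves, 1.08, 0.806 and 0.413 CPM in AS leaves and 0.793, 0.951 and 1.34 CPM in CK leaves, so only SAS was low (log2 -3.96 ± 0.68, adjusted p = 9.0e-04). Gh_D08G1376 had 0.0869, 0.0791 and 0.0995 CPM in SAS leaves, 0.234, 0.214 and 0.287 CPM in AS leaves and 0.717, 1.06 and 0.932 CPM in CK leaves. It entered the leaf fit through CK libraries alone, where it is high. The test called it lower in both treatments, by log2 -3.32 ± 0.38, adjusted p = 1.1e-04 in SAS and log2 -1.88 ± 0.33, adjusted p = 0.00453 in AS.

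Gh_D02G2204 (D02:66060493-66060729), of the larger D02 array, had 2.0, 1.92 and 3.83 CPM in SAS leaves, 9.92, 10.8 and 9.05 CPM in AS leaves and 8.86, 10.1 and 9.45 CPM in CK leaves. AS and CK overlapped, and SAS fell by log2 -1.87 ± 0.24, adjusted p = 2.1e-04. Gh_D07G0138 had 4.0, 3.58 and 8.51 CPM in SAS leaves, 17.2, 19.2 and 17 CPM in AS leaves and 11.7, 10.2 and 11.5 CPM in CK leaves. It was lowest in SAS and highest in AS. The change against CK was log2 -1.05 ± 0.28, adjusted p = 0.00936 in SAS, and 0.68 with adjusted p = 0.102 in AS. For both genes SAS leaf library 3 lay closest to the other groups. The photosynthetic marker sum was 3.02e+03, 2.68e+03 and 5.28e+03 CPM (scaled over all 18 libraries) in SAS leaf libraries 1, 2 and 3, and its part in these values was not tested.

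The deposited annotation gives 7 members the terms response to cold and plasma membrane, all tested in leaves and none in roots. All 7 (Gh_A03G1770, Gh_A03G1775, Gh_A03G1776, Gh_D02G2204, Gh_D02G2209, Gh_D13G2502 and Gh_Sca033085G01) were called lower in SAS leaves, and 0 were called in AS leaves, with a median log2 change of -2.60 in SAS and -0.65 in AS. Of all genes tested only in leaves, as these 7 were, 47.3% were lower in SAS. Gh_A03G1775 had 0.278, 0.396 and 0.232 CPM in SAS leaves, 1.63, 1.61 and 1.47 CPM in AS leaves and 1.81, 2.81 and 3.41 CPM in CK leaves (log2 -3.15 ± 0.33, adjusted p = 7.0e-05). Gh_D02G2209 had counts in SAS leaf library 3 alone, at 0.199 CPM, against 0.887, 0.624 and 0.601 CPM in CK leaves. Its log2 change of -3.30 was -8.38 without that library, a value that depends on the prior count since SAS is then at 0. The change of Gh_A03G1770 was -1.81, or -2.45 without it. Gh_D13G2502 and Gh_Sca033085G01 had nearly the same values, with 2.27, 1.57 and 1.91 CPM and 2.36, 1.73 and 2.09 CPM in CK leaves, and whether they share reads was not tested. The 29 SAUR genes with these terms include 22 that were not members.

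Over all the arrays, 15 members were tested in leaves, and 8 were lower and 1 higher in SAS, where 26.0% of all genes tested in leaves were lower and 27.2% higher. Most of the 15 were tested only in leaves, and of all genes tested only in leaves 47.3% were lower and 10.3% higher. The one that rose, Gh_A03G1783 (A03:98960617-98960907), lies in the A03 array beside 3 that fell. It had 0.278, 0.237 and 0.382 CPM in SAS leaves, 0.381, 0.263 and 0.323 CPM in AS leaves and 0, 0.0468 and 0.0316 CPM in CK leaves. Its log2 change was 3.36 ± 0.64, adjusted p = 0.00166, in SAS and log2 3.46 ± 0.63, adjusted p = 0.00525 in AS, or 3.99 and 4.11 without CK leaf library 2, at levels near the FPKM rule. Gh_D13G0966 had 0.191, 0.198 and 0.0995 CPM in SAS leaves, 2.83, 2.30 and 2.85 CPM in AS leaves and 1.15, 1.29 and 2.45 CPM in CK leaves (log2 -3.32 ± 0.40, adjusted p = 1.5e-04).

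Members that rose in leaves included some already high there. Gh_D05G1322 had 14.3, 17.8 and 16.4 CPM in SAS leaves, 16.4, 11.7 and 10.2 CPM in AS leaves and 5.49, 5.25 and 5.99 CPM in CK leaves. Both treatments stood clear of CK, by log2 1.54 ± 0.18, adjusted p = 1.2e-04 in SAS and log2 1.19 ± 0.18, adjusted p = 0.00204 in AS. Gh_A05G1145 had 8.19, 8.61 and 8.16 CPM in SAS leaves, 11.6, 6.02 and 7.81 CPM in AS leaves and 3.21, 3.63 and 3.16 CPM in CK leaves (log2 1.35 ± 0.22, adjusted p = 0.00295 in AS). Gh_D06G0824, with the term calmodulin binding, had 1.69, 1.92 and 3.82 CPM in SAS leaves, 4.79, 5.77 and 6.16 CPM in AS leaves and 2.11, 2.39 and 1.85 CPM in CK leaves, so it rose in AS (log2 1.40 ± 0.29, adjusted p = 0.00996) and overlapped CK in SAS.

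Gh_A06G1233 had 1.29, 1.66 and 0.630 CPM in SAS leaves, 0.161, 0.0329 and 0.215 CPM in AS leaves and 0.0378, 0.0624 and 0.0316 CPM in CK leaves. Its SAS libraries stood above the rest, and it entered the leaf fit through them alone. The log2 change was 4.69 ± 0.68, adjusted p = 3.8e-04. Gh_A09G1745 had 1.39, 2.81 and 1.49 CPM in SAS leaves and 0.0944, 0.187 and 0.822 CPM in CK leaves (log2 2.34 ± 0.64, adjusted p = 0.0117), and its change was 3.72 without CK leaf library 3, its highest CK leaf library. Gh_D10G0502 had 1.20, 1.07 and 0.614 CPM in SAS leaves, 1.41, 0.148 and 1.63 CPM in AS leaves and 0.170, 0.0780 and 0.284 CPM in CK leaves. Its SAS call (log2 2.42 ± 0.78, adjusted p = 0.0249) was lost without CK leaf library 1, CK leaf library 2 or SAS leaf library 1 (adjusted p = 0.0660, 0.0865 and 0.0618). The abundant root members Gh_A08G0911, Gh_D08G1114 and Gh_A03G1990 also rose in SAS leaves, from a low base, by log2 1.82, 1.64 and 1.15 (adjusted p = 0.00156, 5.1e-04 and 4.7e-04).

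**Figure D4:**
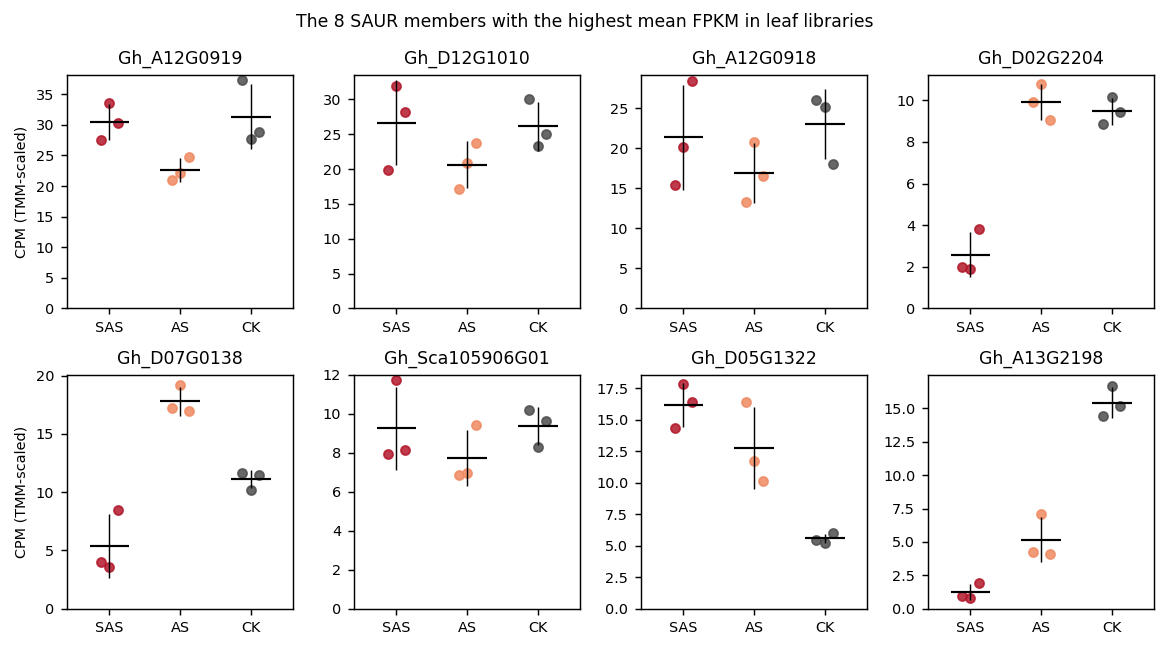
CPM of the 8 members with the highest mean FPKM over leaf libraries, in SAS, AS and CK leaves. Points are libraries, horizontal bars are means and vertical bars are SDs (n = 3). Gh_D02G2204, Gh_D07G0138 and Gh_A13G2198 are lowest in SAS, Gh_D05G1322 is lowest in CK, and the points of Gh_D12G1010 and Gh_A12G0918 overlap between groups.

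None of the 3 most abundant leaf members was called in SAS leaves. Gh_A12G0919 had 27.6, 33.6 and 30.3 CPM in SAS leaves, 21, 22.1 and 24.8 CPM in AS leaves and 37.4, 27.8 and 28.9 CPM in CK leaves. It was slightly lower in AS than in CK (log2 -0.47 ± 0.13, adjusted p = 0.0330), a call lost when any single AS or CK leaf library was left out (adjusted p from 0.0548 to 0.146). Gh_D12G1010 had 19.9, 31.9 and 28.2 CPM in SAS leaves, 17.1, 20.9 and 23.8 CPM in AS leaves and 30.0, 23.3 and 25.1 CPM in CK leaves, and Gh_A12G0918 had 15.4, 20.2 and 28.4 CPM in SAS leaves, 13.3, 20.8 and 16.6 CPM in AS leaves and 26, 25.1 and 18 CPM in CK leaves. Neither was called against CK in leaves. Gh_A12G2619, the main member of CK roots, fell in AS leaves from a low base (2.21, 1.79 and 1.56 CPM in AS against 3.72, 3.52 and 2.39 CPM in CK, log2 -0.79 ± 0.25, adjusted p = 0.0484). That call was lost without any single AS or CK leaf library other than CK leaf library 3, with adjusted p up to 0.166.

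Between the treatments in leaves, 10 of 83 members were higher and 24 lower in SAS than in AS, with 40.0% of all genes called, 20.7% higher and 19.3% lower. The count of higher members was 6 without SAS leaf library 2. Of the 40 members tested only in leaves, 16 were lower and 0 higher, where 36.0% of genes tested only in leaves were lower and 6.97% higher. Gh_D13G0966 differed by log2 -4.02 ± 0.41, adjusted p = 3.4e-04, Gh_D13G2504 by log2 -3.54 ± 0.68, adjusted p = 0.00333 and Gh_A03G1775 by log2 -2.38 ± 0.32, adjusted p = 8.5e-04, with the library values given above. Gh_D13G0967, next to Gh_D13G0966 in the D13 array, had 0.0695, 1.40 and 1.14 CPM in SAS leaves and 2.76, 5.07 and 3.75 CPM in AS leaves (log2 -2.15 ± 0.67, adjusted p = 0.0280), and its call was lost without AS leaf library 2 or 3 (adjusted p = 0.0813 and 0.0611). Gh_A06G1233 (log2 3.11 ± 0.59, adjusted p = 0.00324) and Gh_D09G1854 (log2 2.50 ± 0.55, adjusted p = 0.00619) led the members higher in SAS. Of these, Gh_A06G1233 entered the leaf fit through SAS libraries alone, the group where it is high. Gh_D09G1854 had 2.64, 5.76 and 2.41 CPM in SAS leaves and 0.850, 0.280 and 0.772 CPM in AS leaves. Gh_D08G1506 had 4.50, 5.54 and 3.43 CPM in SAS leaves, 1.04, 0.921 and 1.60 CPM in AS leaves and 1.49, 1.22 and 0.695 CPM in CK leaves, with SAS alone high (log2 1.92 ± 0.33, adjusted p = 0.00220 against AS), and Gh_D08G1114 was higher in SAS by log2 1.04 ± 0.25, adjusted p = 0.00884.

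Whether roots and leaves answered differently was tested as an interaction over the 43 members that passed the rule in both tissues. For SAS, 18 of the 43 had a higher response in root than in leaf and 7 a lower one, with 49.0% of 35697 genes called, 24.2% higher and 24.8% lower. With library totals as the only scaling the calls were 16 higher and 15 lower. For AS, 17 were higher and 6 lower, with 35.2% of all genes called, 18.2% higher and 17.0% lower, and 12 higher and 14 lower with library totals. The members' median log2 difference between root and leaf response was 0.57 in SAS and 0.51 in AS, beside -0.05 and -0.02 for all genes. With library totals these turned to -0.19 and -0.11 for the members and -0.81 and -0.62 for all genes.

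Set side by side, 4 of the 43 members rose in SAS roots and fell in SAS leaves: Gh_A08G1096, Gh_A13G2189, Gh_D13G0966 and Gh_D13G0968. The share of all genes called in opposite directions in the tissues was not counted. These members are therefore listed as single cases, and their number is not read as a trait of the family. Gh_D13G0966 had at least 35.2-fold more in SAS than in CK roots, while SAS leaves had a log2 change of -3.32. Its fitted difference between responses was log2 13.38 in SAS, which depends on the prior count, and at least 8.65 with CK roots at the floor (adjusted p = 2.4e-06). Gh_D13G0968 had 0.243, 0.0989 and 0.183 CPM in SAS leaves and 0.774, 0.499 and 0.522 CPM in CK leaves, a fall, against the rise in SAS roots given above, and its responses differed by log2 6.17 ± 0.76, adjusted p = 9.6e-06. For Gh_D04G0287 no change was called in SAS leaves (0.487, 1.58 and 0.946 CPM in SAS and 1.0, 1.22 and 1.19 CPM in CK, adjusted p = 0.712), and the responses differed by log2 6.70 ± 0.63, adjusted p = 8.4e-07, or 7.32 without CK root library 3. All 4 opposite movers were called in the SAS interaction, but Gh_A13G2189 entered the root fit through SAS libraries alone, the group where it is high.

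Of the 43, 1 member was called the other way, Gh_D05G1322, which fell in roots and rose in leaves in both treatments. For this direction too, the share of all genes was not counted. Its responses differed by log2 -3.31 ± 0.52, adjusted p = 9.4e-05 in SAS and log2 -2.79 ± 0.51, adjusted p = 7.7e-04 in AS. Gh_A06G1233 had 0.253, 0.732 and 0.232 CPM in SAS roots and 0.434, 0.481 and 0.680 CPM in CK roots, which overlap, and it rose in SAS leaves. Its difference was log2 -4.84 ± 0.89, adjusted p = 3.4e-04, or -5.58 without SAS root library 2. It passed the rule in leaves, and so entered this test, through SAS leaf libraries alone, the group where it is high. Gh_D10G0502 had 34.1, 16.3 and 22.7 CPM in SAS roots, 23.9, 32 and 19.5 CPM in AS roots and 33.5, 21.7 and 27.4 CPM in CK roots, where no change was called. Its differences were log2 -2.38 ± 0.81, adjusted p = 0.0236 in SAS and log2 -2.64 ± 0.81, adjusted p = 0.0189 in AS. The SAS one was lost without CK leaf library 2 or SAS leaf library 1 (adjusted p = 0.0730 and 0.0561), and the AS one without AS leaf library 1, AS leaf library 3 or CK leaf library 2 (adjusted p = 0.0518, 0.0576 and 0.0602).

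**Figure D5:**
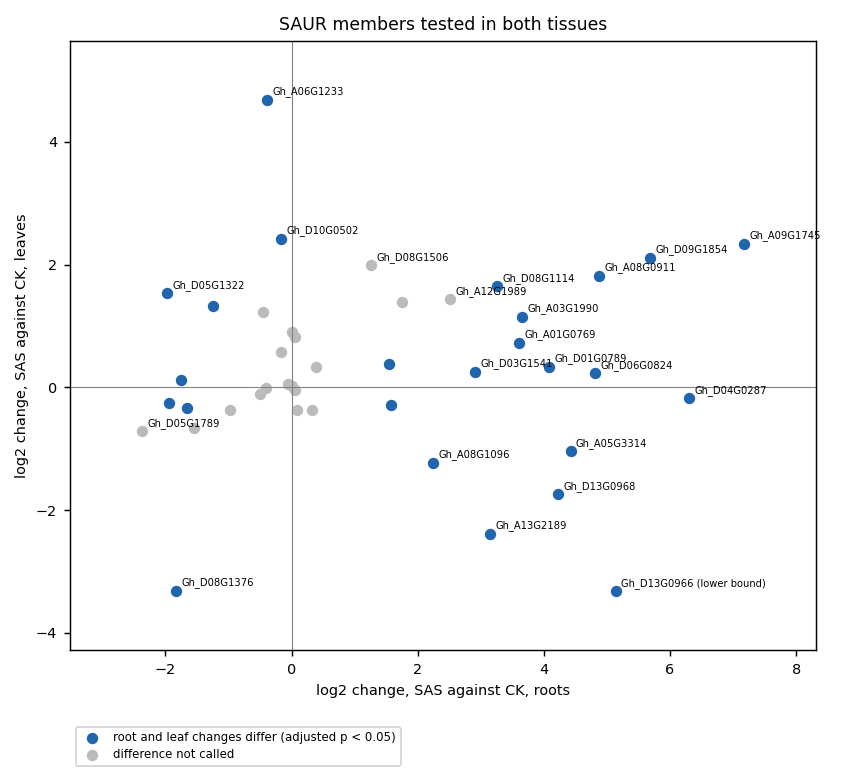
Log2 change in SAS against CK in roots (x axis) and in leaves (y axis) for the 43 members tested in both tissues. Blue points have root and leaf changes that differ at an adjusted p under 0.05, grey points do not. The root value of Gh_D13G0966 is a lower bound. At lower right, Gh_A08G1096, Gh_A13G2189, Gh_D13G0966 and Gh_D13G0968 rose in roots and fell in leaves, and the leaf change of Gh_A05G3314 beside them was not called. Gh_A13G2189 entered the root fit, and Gh_A06G1233 the leaf fit, through SAS libraries alone.

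For AS the largest fitted root-leaf differences were those of Gh_D13G0966, Gh_A09G1745 and Gh_D01G0789. The fitted log2 value of Gh_D13G0966, 7.84, depends on the prior count, and with CK roots at the floor it was at least 3.17, below those of the other two. Gh_A09G1745 differed by log2 3.82 ± 0.75, adjusted p = 0.00131, or 2.45 without CK leaf library 3. Gh_D01G0789 had 11.8, 14 and 3.42 CPM in AS roots against 0.949, 0.627 and 1.22 CPM in CK roots, and 1.64, 2.32 and 2.96 CPM in AS leaves against 3.06, 2.70 and 2.80 CPM in CK leaves. AS root library 3 was the lowest of its group and still above CK, leaf groups overlapped, and the difference was log2 3.75 ± 0.55, adjusted p = 1.4e-04. On the other side Gh_A12G1034, which fell in AS roots, had 5.74, 3.52 and 4.04 CPM in AS leaves and 5.0, 4.27 and 4.17 CPM in CK leaves, and its responses differed by log2 -1.99 ± 0.40, adjusted p = 0.00150. The 3 members with the leaf senescence term were called higher in root than in leaf in the AS interaction, by 0.99 for Gh_A12G0918, 0.83 for Gh_A12G0919 and 0.76 for Gh_D12G1010, but all 3 calls were lost when scaled by library totals alone, at 0.40, 0.24 and 0.17 (adjusted p = 0.294, 0.445 and 0.60). They were also lost without CK leaf library 1 (adjusted p = 0.0538, 0.0580 and 0.103), without CK root library 1 (adjusted p = 0.0530, 0.0501 and 0.10) and, for some of the 3, without other libraries.

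The rest of the auxin route was counted from lists matched by description. The shares of all genes to set beside these counts are 28.6% higher and 28.3% lower in SAS roots, 21.0% and 17.0% in AS roots, 27.2% and 26.0% in SAS leaves, and 11.5% and 9.21% in AS leaves. Of genes tested only in leaves, 10.3% were higher and 47.3% lower in SAS leaves. Lists with more genes tested in leaves than in roots hold some of these. Auxin receptors of the TIR1/AFB family, which start the response, fell in 6 of 6 genes tested in SAS roots and 5 of 6 in AS roots, and 0 rose. In leaves 5 of 9 fell in SAS and 5 of 9 in AS. Auxin response factors, the DNA-binding factors of the route, had 6 higher and 30 lower of 57 in SAS roots and 2 higher and 34 lower in AS roots, and 7 higher and 37 lower of 63 in SAS leaves and 3 higher and 29 lower in AS leaves. Aux/IAA genes, whose proteins repress those factors and are themselves auxin-induced, had 14 higher and 18 lower of 51 in SAS roots and 2 higher and 13 lower in AS roots. In leaves 4 of 59 were higher and 30 lower in SAS, and 0 higher and 27 lower in AS.

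Against the same shares of all genes, GH3 genes, which join auxin to amino acids and are also auxin-induced, had 14 higher and 6 lower of 26 in SAS roots, 8 higher and 8 lower in AS roots, 8 higher and 8 lower of 24 in SAS leaves, and 5 higher and 2 lower in AS leaves. Auxin carriers had 5 higher and 10 lower of 21 in SAS roots, 3 higher and 7 lower in AS roots, 5 higher and 17 lower of 39 in SAS leaves, and 2 higher and 5 lower in AS leaves. The single auxin synthesis gene tested in roots fell in both treatments, and 0 of 3 were called in leaves. Plasma membrane proton pumps, the pumps that SAUR proteins keep active in Arabidopsis, had 8 higher and 4 lower of 21 in SAS roots, 5 higher and 3 lower in AS roots, 7 higher and 13 lower of 28 in SAS leaves, and 4 higher and 1 lower in AS leaves. Expansins, which loosen acidic walls, had 9 higher and 6 lower of 33 in SAS roots, 11 higher and 5 lower in AS roots, 11 higher and 32 lower of 57 in SAS leaves, and 11 higher and 12 lower in AS leaves.

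Factors that drive SAUR genes in Arabidopsis were few, and with 3 to 16 tested genes a list their counts stand beside the same shares of all genes. Phytochrome interacting factors fell in 3 of 3 genes tested in SAS roots and 3 of 3 in AS roots, with 1 higher and 5 lower of 12 in SAS leaves and 0 higher and 3 lower in AS leaves. Brassinosteroid response factors had 5 higher and 2 lower of 15 in SAS roots, 6 higher and 1 lower in AS roots, 2 higher and 7 lower of 16 in SAS leaves, and 0 higher and 6 lower in AS leaves. The median log2 change in SAS roots was -1.88 for the receptors, -0.70 for the response factors, -0.79 for Aux/IAA genes and 1.15 for GH3 genes, where the SAUR members had 0.35 and all genes -0.06. With library totals as the only scaling these were -2.43, -1.23, -1.33, 0.63, -0.18 and -0.59.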

How the data were processed

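The deposited table holds, for each gene and library, read counts and FPKM made by the authors, per the file headers. Reads were handled with HISAT and StringTie, per the submitters' processing notes, and no source used here gives versions, genome build or strand setting. A count of 0 is listed by the authors as an FPKM of 0.0001. Total counts were 46345805 to 66843791 per library, and intervals were not needed because no share of a single library is given.

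From the deposited counts, edgeR 4.0.16 (R 4.3.3) quasi-likelihood tests with TMM scaling were fitted to the genes that reached an FPKM of 1 in 3 or more of the libraries fitted. This was done separately for the 9 root and the 9 leaf libraries, and for all 18 for root against leaf. The interactions also used all 18 libraries, with the 35697 genes that passed the rule within roots and within leaves. P-values were adjusted over all genes tested (Benjamini-Hochberg), and calls are at an adjusted p under 0.05. CPM is a count scaled by the TMM-adjusted library total, and the standard error is the log2 change divided by the square root of F. The procedure was tested on simulated data. Alternatives were DESeq2 1.42.0, other scaling, no FPKM filter, a replicate block and leaving out each library.

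Members, gene lists and markers were chosen with earlier results of these data known, and the lists were completed from the descriptions before any test of them. Annotation terms were chosen after the terms were seen. Named members are, per comparison within a tissue, the 4 called higher and the 4 called lower with the largest log2 change and no overlap between groups, the 5 most abundant per tissue, the 3 with the largest change each way in root against leaf and in each interaction, those at the edge of the FPKM rule, and array members by count. Gh_A08G1096, Gh_A05G3314, Gh_A03G1770, Gh_A03G1776, Gh_D02G2209, Gh_D13G2502, Gh_Sca033085G01, and named members in comparisons that did not name them, were chosen after their values were seen. None of the gene IDs (0) matched the RefSeq table of 99454 genes, so no sequence is shown.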

Additional observations from a re-analysis of the deposited data

Results flagged for a closer look

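The 12 values below drew attention because a member's response to a treatment differed between roots and leaves in a test of that difference (edgeR's quasi-likelihood interaction test, Benjamini-Hochberg adjustment over 35697 genes, 3 libraries per group). Each is the log2 change in roots minus the log2 change in leaves, so a positive value means a more positive change in roots. The tissue values beside it come from the fits within each tissue, and so need not add up to it exactly. No explanation was tested for any of them.

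In SAS, Gh_D13G0966 had a fitted difference of 13.38, which depends on the prior count because CK roots were at 0, and at least 8.65 with CK roots at the floor. Gh_D04G0287 differed by 6.70, with 6.30 in roots and -0.18 in leaves. Gh_D13G0968 differed by 6.17, with 4.22 in roots and -1.75 in leaves. On the negative side, Gh_A06G1233, which entered the leaf fit through SAS libraries alone, differed by -4.84, with -0.39 in roots and 4.69 in leaves. Gh_D05G1322 differed by -3.31, with -1.98 in roots and 1.54 in leaves. Gh_D10G0502 differed by -2.38, with -0.17 in roots and 2.42 in leaves, a call lost without CK leaf library 2 or SAS leaf library 1.

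In AS, Gh_D13G0966 had a fitted difference of 7.84, and at least 3.17 with CK roots at the floor. Gh_A09G1745 differed by 3.82, with 4.58 in roots and 0.84 in leaves, and by 2.45 without CK leaf library 3. Gh_D01G0789 differed by 3.75, with 3.38 in roots and -0.31 in leaves. Gh_D05G1322 differed by -2.79, with -1.65 in roots and 1.19 in leaves. Gh_D10G0502 differed by -2.64, with -0.13 in roots and 2.57 in leaves, a call lost without AS leaf library 1, AS leaf library 3 or CK leaf library 2. Gh_A12G1034 differed by -1.99, with -2.07 in roots and -0.01 in leaves. Both treatments share their CK libraries, so the values of a gene in SAS and in AS are not independent.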

How the results depend on the processing

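For the 39 members named by rule, 83 log2 values in the comparisons that named them were recomputed under 1252 alternatives, and 0 changed sign. The call was lost in 0 of 83 with DESeq2's Wald test, 1 with DESeq2-type size factors (Gh_A12G2619 in AS leaves), 2 with library totals only, 4 with no FPKM filter, 3 with a replicate block and in 42 fits that left out 1 library. Library totals alone moved counts by over 1.5 times: members lower than CK were 14 in AS roots, 18 in SAS roots and 3 in AS leaves, and members with a lower response in root than in leaf were 14 in AS and 15 in SAS. Summed CPM was then 674 in SAS roots, 452 in AS roots, 589 in CK roots and 260.3 in AS leaves, and with every SAUR gene it was 257 in AS leaves. DESeq2 gave 9 members lower in AS leaves, and with no FPKM filter 3 were lower there and 28 had a higher SAS response in root. The cause was not tested.

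Leaving out 1 library at a time gave 19 to 23 members higher and 6 to 9 lower in AS roots, 25 to 28 and 7 to 11 in SAS roots, and 11 to 18 and 3 to 5 between SAS and AS roots. In leaves it gave 5 to 10 higher and 3 to 6 lower in AS, 12 to 17 and 22 to 29 in SAS, and 6 to 11 and 18 to 24 between SAS and AS. Between CK roots and CK leaves the counts were 23 to 27 and 36 to 41, and for the root and leaf responses 13 to 18 and 4 to 7 in AS and 18 to 19 and 5 to 8 in SAS.

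Same-numbered libraries showed no clear pairing. They correlated between -0.176 and 0.0913 in roots (9 pairs) and between -0.176 and 0.164 in leaves (9 pairs). Of these, 1 of 9 in roots and 2 of 9 in leaves correlated best with their own number. Between roots and leaves the range was -0.219 to 0.208 (27 pairs), and 8 of 27 correlated best with their own number. With 3 libraries per group, such values cannot show that the libraries were unpaired. With a replicate block set within each tissue, 27 members were lower in CK roots than in CK leaves. Every other count of members stayed within 1.5 times. That block does not address a pairing of roots with leaves.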
